A study of Mus musculus with 18 samples.

Results

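Selenoproteins carry selenocysteine, and 10 of their genes are described here across 18 RNA-seq libraries of mouse cortical neural progenitor cells: the glutathione peroxidases Gpx1 and Gpx4, the thioredoxin reductases Txnrd1 and Txnrd2, and Selenow, Selenoh, Selenom, Selenok, Selenos and Selenop. They were taken by gene symbol from the 55573 genes of the deposited expression table, in which each symbol had a single row. The rule names symbols and uses no measured value, though it was written with earlier results of these data known. The study asked how nonsense-mediated mRNA decay (NMD) and the transcription factor p53, encoded by Trp53, act together in such cells. There were 3 groups of 6 libraries each, all C57BL/6 and all with replicates numbered 3, 4, 5, 6, 8 and 9. Upf2 Trp53 Cre cells had floxed alleles of both genes (Upf2fl/fl Trp53fl/fl) and received AAV9-Cre, a virus that delivers Cre recombinase. Upf2 Cre cells (Upf2fl/fl) received the same virus, and Upf2 mock cells (Upf2fl/fl) received medium alone. The medium of every group held the B27 supplement and penicillin/streptomycin, it was changed after 14 h, and RNA was taken at 72 h. Doubly floxed cells without virus and cells given a virus lacking Cre are not among the samples, so Cre and virus cannot be told apart, and neither can the Trp53 deletion and the doubly floxed line. Nothing in the labels says whether the replicates were separate animals or cultures of one line, so p values measure the spread between these libraries.

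In a selenoprotein mRNA, a UGA that would otherwise stop translation is read as selenocysteine. The ribosome does this with the help of a SECIS element in the 3' untranslated region, its binding protein, a dedicated elongation factor and a dedicated transfer RNA, and the outcome depends on selenium supply. NMD destroys mRNAs on which translation stops well upstream of the last exon junction, and UPF2 is one of its core factors. A selenocysteine UGA that lies upstream of a junction can therefore be taken for a premature stop, and mRNAs such as that of Gpx1 are textbook cases of NMD under low selenium. In the brain, selenoproteins protect cells against peroxides and keep the thioredoxin system running.

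The UGA and its surroundings are shown first, because its place relative to the last junction is what NMD reads. Each line gives 27 bases of the mRNA, 12 on either side of the codon, as DNA from the GENCODE M21 transcripts (GRCm38, the assembly also called mm10), with the selenocysteine TGA in capitals. For Selenop, which has 10 such codons, the first is shown.
Gpx1 (UGA at chr9:108339451-108339453, plus strand, exon 1 of 2): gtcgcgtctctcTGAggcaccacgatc
Gpx4 (UGA at chr10:80054737-80054739, plus strand, exon 3 of 7): gtggcctcgcaaTGAggcaaaactgac
Selenow (UGA at chr7:15920464-15920466, minus strand, exon 2 of 6): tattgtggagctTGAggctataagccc
Selenoh (UGA at chr2:84670381-84670383, minus strand, exon 2 of 3): cattgtacgagcTGAcgcgtgtacggc
Selenom (UGA at chr11:3516273-3516275, plus strand, exon 2 of 5): acctgtggaggaTGAcagttgaatcgc
Selenop (UGA at chr15:3274848-3274850, plus strand, exon 2 of 5): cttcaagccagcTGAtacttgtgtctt
Txnrd2 (UGA at chr16:18477772-18477774, plus strand, exon 17 of 18): gtgactggttgcTGAggctaagtcacc
Selenok (UGA at chr14:29973440-29973442, plus strand, exon 4 of 5): atggctggtggaTGAggaaggtaaatg
Selenos (UGA at chr7:66088844-66088846, plus strand, exon 6 of 6): tcatctggcggcTGAaactaagactct
Txnrd1 (UGA at chr10:82896037-82896039, plus strand, exon 14 of 14): cagtctggctgcTGAggttaagcccca

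The codon sits early in the reading frame of 6 of these genes and near its end in 4. It is codon 47 of 201 in Gpx1, 73 of 197 in Gpx4, 13 of 88 in Selenow, 38 of 116 in Selenoh, 48 of 145 in Selenom and 59 of 380 in Selenop. In Selenok it is codon 92 of 94, in Selenos 189 of 190, in Txnrd1 498 of 499 and in Txnrd2 526 of 527. A stop is commonly taken as premature when it lies at least 55 bases before the last junction. By that measure the UGA of Gpx1 lies 105 bases before the junction, that of Gpx4 342, Selenow 243, Selenoh 136, Selenom 135, Selenop 357 and Txnrd2 83. The UGA of Selenok lies 5 bases before it, and those of Selenos and Txnrd1 lie in the last exon, 80 and 63 bases past the junction. The distance depends on the transcript in 3 of these genes. It ranges from 108 to 266 bases over the annotated coding transcripts of Selenoh and from 26 to 357 over those of Selenop, and 1 annotated end of Txnrd2 has no junction downstream. The complete Selenop transcripts all put it at 357 bases, and the shorter distances come from transcripts annotated as incomplete. In the Txnrd2 transcript shown, the ordinary stop codon itself lies 77 bases before the last junction. The base after the TGA is G in 6 of the 10 genes, C in 2, A in 1 and T in 1.

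Levels are in TPM, which express each gene's transcripts as a share of all transcripts of a library, corrected for gene length, with the same total in each library. The number of reads behind a value is therefore unknown and no counting interval is given, and TPM of one gene depend on those of the rest. At least 1 TPM was reached by 14019 to 15210 genes per library. Trp53 stood between 14.0 and 18.4 TPM in Upf2 Trp53 Cre libraries, between 86.6 and 189 TPM in Upf2 Cre libraries and between 81.4 and 136 TPM in mock libraries. All 6 libraries of the doubly floxed group were thus below the other 12. Upf2 averaged 33.8 ± 9.03 TPM in Upf2 Trp53 Cre, 20.2 ± 4.82 TPM in Upf2 Cre and 11.1 ± 2.98 TPM in mock libraries (SD, n = 6 each). It was higher in both Cre groups than in mock (exact two-sided permutation tests, adjusted p = 0.0043 and 0.0065), the opposite of what the label of a deletion implies. TPM of the whole gene include reads from exons outside the floxed segment, so they do not check the deletion, and the groups are called here by their labels. Library 3 of Upf2 Cre stood apart from its group. Its mean correlation over genes was 0.902 with the other Upf2 Cre libraries, 0.953 with Upf2 Trp53 Cre libraries and 0.951 with mock libraries. Mock library 8 also correlated at least as well with the Cre groups, at 0.957 with Upf2 Trp53 Cre and 0.948 with Upf2 Cre, as with the other mock libraries, at 0.944. Mock library 3 had a mean correlation of 0.916 with its group, and Gm23935 alone took 141092 TPM in Upf2 Cre library 6. Library 4 of Upf2 Trp53 Cre had Selenow, Selenok and Selenos levels inside or beside the Upf2 Cre range, with Trp53 at 18.4 TPM. All 10 radial glia markers had a median of at least 1 TPM in every group. Oligodendrocyte lineage markers summed to 1101 to 3417 TPM in Upf2 Trp53 Cre, 1379 to 4055 in Upf2 Cre and 1510 to 3311 in mock. Of these, Olig1 and Olig2 averaged 1816 and 810 TPM over the 18 libraries. Microglial markers summed to at most 1.13 TPM in any library, with Aif1 and C1qa at 0 in all of them, and vascular markers to at most 4.46 TPM.

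In Upf2 Cre cells, 5 of the 10 selenoprotein genes were higher than in mock cells and 2 were lower. Gpx1, Selenow, Selenom, Gpx4 and Txnrd2 rose, by log2 differences of 1.39, 1.51, 1.09, 0.59 and 0.45. Selenok and Selenos fell, with log2 differences of -1.16 and -0.53. These calls are from limma on log2(TPM + 1) at an adjusted p under 0.05. The same test called 40.7% of the 15216 genes tested, 16.5% as higher and 24.2% as lower. The log2 difference of the 10 genes had a median of 0.43, against -0.12 over all genes tested. After median-ratio scaling that median over all genes was -0.03, and none of the 10 changed direction. Groups did not overlap for Gpx1 and Selenow, both higher, and for no gene that was lower. Over all genes 5.86% did not overlap, 3.79% as higher and 2.07% as lower. Single libraries moved the count of 7: it was 4 without any one of Upf2 Cre libraries 5, 8 and 9 or mock libraries 4 and 5, and 9 without Upf2 Cre library 3 or mock library 8, when Selenop and Txnrd1 were called as lower too. In bulk RNA, fewer cells of a type and less RNA per cell cannot be told apart. The summed TPM of the 10 radial glia markers ranged from 3476 to 10378 in Upf2 Cre and from 5092 to 13815 in mock libraries, with 7 of the 10 lower in Upf2 Cre. The 6 astrocyte markers summed to 644 to 1403 TPM in Upf2 Cre and 830.4 to 1613 TPM in mock libraries, with 4 lower. Their part in the selenoprotein differences was not tested.

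In Upf2 Trp53 Cre cells, 2 of the 10 genes were higher than in mock cells and none was lower. Gpx1 rose by 1.03 and Selenoh by 0.76 on the log2 scale. Over all genes 11.5% were called, 10.4% as higher and 1.09% as lower. Gpx4 and Selenow had unadjusted p under 0.05 in the same fit but missed the threshold, with log2 differences of 0.53 and 0.70 and adjusted p of 0.10 and 0.090. Over all genes tested, 3719 of 15216 had an unadjusted p under 0.05 in this comparison. The median log2 difference of the 10 genes was 0.20, against 0.08 over all genes. Gpx1 was again without overlap in TPM as deposited, though not after median-ratio scaling. As deposited, 7.92% of all genes did not overlap, 7.08% as higher. The radial glia markers summed to 4704 to 10737 TPM in Upf2 Trp53 Cre libraries, with 1 of the 10 lower than in mock. Both comparisons use the same mock libraries, so the shared rise of Gpx1 is not a repeat in separate controls.

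Between the Cre groups, Selenow was lower in Upf2 Trp53 Cre than in Upf2 Cre cells, with a log2 difference of -0.82, and Selenok was higher, with 0.77. The other 8 genes did not pass the threshold, and 14.2% of all genes did, 11.8% as higher and 2.46% as lower. Groups overlapped for all 10, and 2.72% of all genes were without overlap, 1.87% as higher and 0.848% as lower. Of the radial glia markers, 1 of 10 was higher in Upf2 Trp53 Cre. The median log2 difference of the 10 genes was 0.08, against 0.25 over all genes. This comparison turned on single libraries. Without Upf2 Cre library 3, 7 of the 10 genes were called: Selenok, Selenos and Txnrd1 as higher in Upf2 Trp53 Cre cells, with log2 differences of 1.00, 0.56 and 0.42, and Selenow, Selenom, Txnrd2 and Gpx1 as lower, with -0.96, -0.88, -0.57 and -0.52. Without Upf2 Trp53 Cre library 4, 6 genes were called, the same apart from Gpx1. Both calls, Selenow and Selenok, were lost without any one of Upf2 Cre libraries 5, 6, 8 and 9, Upf2 Trp53 Cre libraries 3, 5, 6, 8 and 9 or mock library 4. Rescaling each library by median ratios moved the median over all genes to 0.02. The split of all calls was 1791 higher and 374 lower as deposited, 305 and 727 after median-ratio scaling, and 539 and 592 after quantile normalization. Against mock, the split for Upf2 Trp53 Cre was 1586 higher and 166 lower as deposited, 974 and 480 after median-ratio scaling and 1081 and 478 after quantile normalization.

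**Figure D1:**
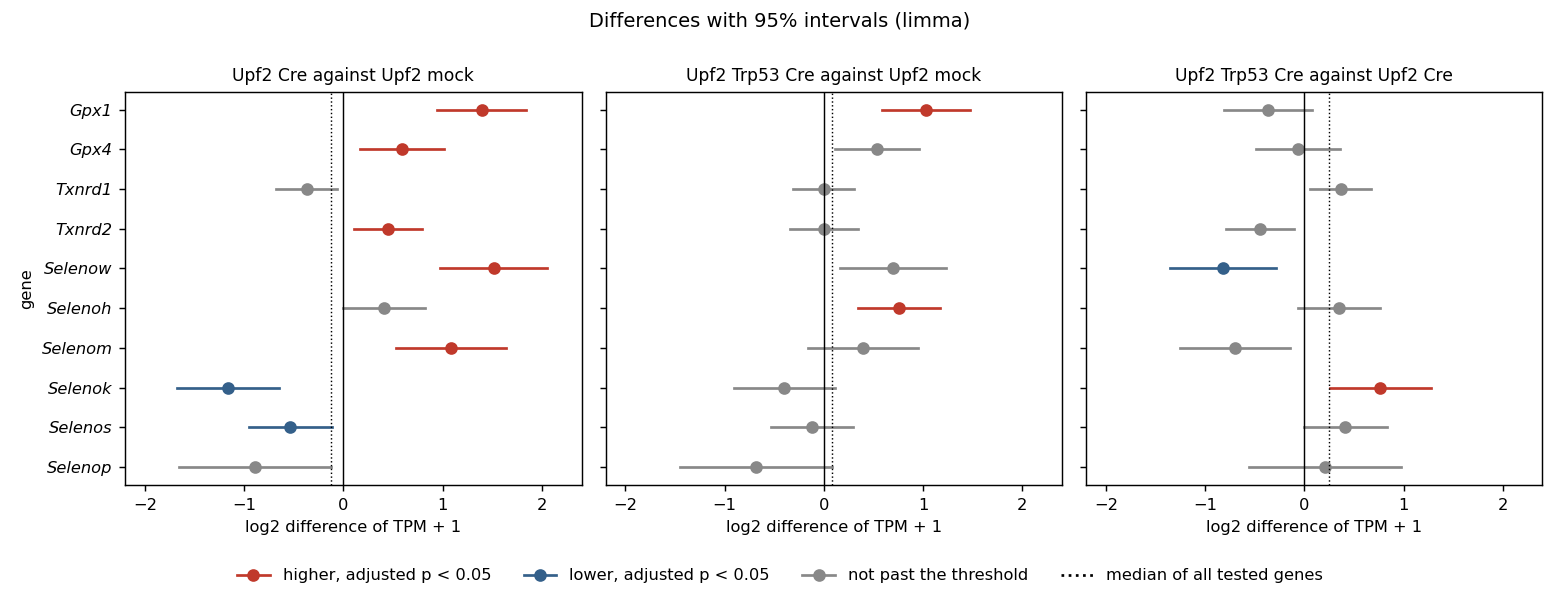
Log2 difference of TPM + 1 (x axis, with 95% interval) for the 10 selenoprotein genes (y axis) in the 3 comparisons, the group named first over the group named second. Red and blue mark genes past an adjusted p of 0.05, and the dotted line is the median of all 15216 tested genes. In Upf2 Cre against mock 5 genes are red and 2 blue, while Gpx1 and Selenoh are the red genes in Upf2 Trp53 Cre against mock.

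The 10 genes differed widely in level. Their summed TPM ranged from 3777 to 5909 in Upf2 Trp53 Cre, from 4370 to 7822 in Upf2 Cre and from 2365 to 3594 in mock libraries. The sum in every library of either Cre group was above the highest mock sum in TPM as deposited. The closest were 3777 TPM in Upf2 Trp53 Cre library 3 and 3594 TPM in mock library 3. Median-ratio scaling divides these libraries by 1.11 and 1.06, and the first sum was then below the second. Selenow had the highest mean TPM of the 10 in all 3 groups, and Txnrd2 the lowest. Selenow alone made up 38.6% to 57.5% of the sum in Upf2 Trp53 Cre, 48.3% to 67.3% in Upf2 Cre and 30.8% to 53.8% in mock libraries. Selenoh had the next highest mean in each group.

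**Figure D2:**
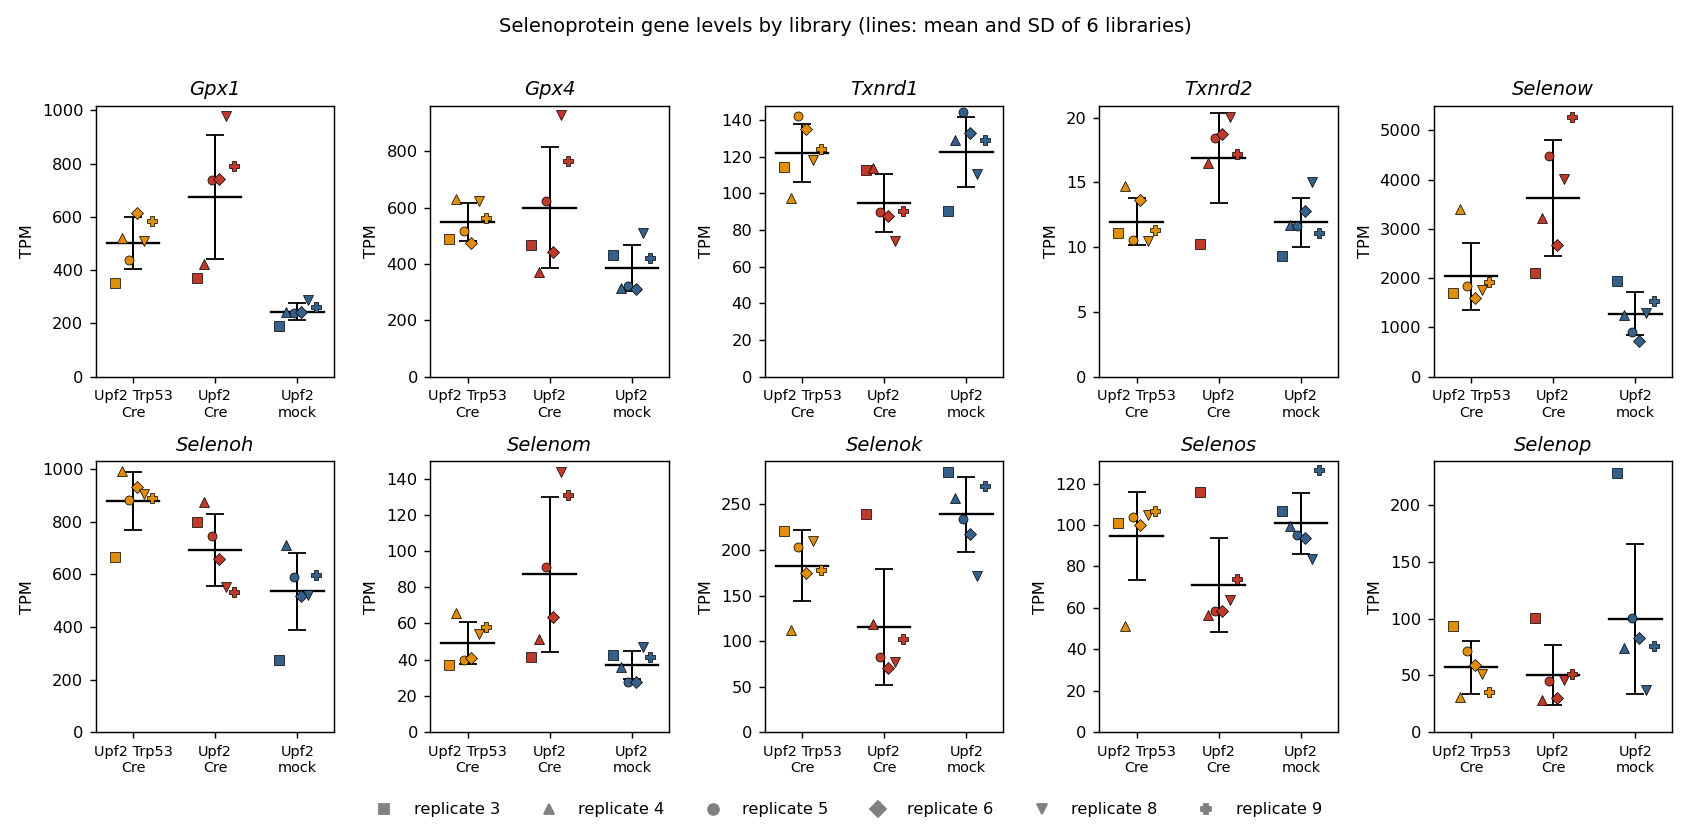
TPM (y axis, linear, from 0) of each selenoprotein gene in every library of the 3 groups (x axis). Points are libraries, with the replicate number given by the symbol, and lines give the mean and SD of 6 libraries. Gpx1 in both Cre groups, and Selenow in Upf2 Cre, lie above every mock library, and Selenok in Upf2 Cre lies below them apart from library 3.

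Gpx1 encodes the abundant cytosolic glutathione peroxidase, which reduces hydrogen peroxide. Upf2 Trp53 Cre libraries ran from 352 to 615 TPM with a median of 515, Upf2 Cre libraries from 369.8 to 977 TPM with a median of 742, and mock libraries from 192 to 288 TPM with a median of 241. Every Cre library was above every mock library in TPM as deposited, and the 2 Cre groups overlapped. After median-ratio scaling, Upf2 Trp53 Cre library 3, at 316, was below mock library 8, at 319. Library 3 was the lowest of each group. Upf2 Cre exceeded mock by 1.39 on the log2 scale (SE 0.21, limma adjusted p = 1.9e-04), and Upf2 Trp53 Cre exceeded it by 1.03 (SE 0.21, adjusted p = 0.0027). In means this was 674 ± 233 TPM in Upf2 Cre and 503 ± 96.7 TPM in Upf2 Trp53 Cre libraries, against 244 ± 31.7 TPM in mock libraries (SD, n = 6 each), a 2.76-fold and a 2.06-fold ratio. Both calls held in all 27 alternative settings. Between the Cre groups the difference was -0.36, with a 95% interval from -0.81 to 0.08 and an adjusted p of 0.23, and it passed the threshold without Upf2 Cre library 3 (-0.52, adjusted p = 0.040).

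Gpx4 encodes the peroxidase that reduces lipid hydroperoxides in membranes and so protects cells from ferroptosis. Its TPM had a median of 541 in Upf2 Trp53 Cre (range 477 to 630.1), 546 in Upf2 Cre (371 to 930.1) and 371 in mock libraries (309.9 to 511). The groups overlapped, and the 2 highest values were Upf2 Cre libraries 8 and 9. Upf2 Cre exceeded mock by 0.59 (SE 0.20, adjusted p = 0.027) on the log2 scale. That call was lost when any of Upf2 Cre libraries 5, 8 and 9 or mock libraries 4, 5 and 6 was left out, with log2 differences of 0.45 to 0.57 and adjusted p of 0.056 to 0.078. It was also lost with no filter on low values (adjusted p = 0.058) and with only the compared groups fitted (adjusted p = 0.062). Upf2 Trp53 Cre differed from mock by 0.53 (95% interval 0.11 to 0.96, adjusted p = 0.10, and 0.031 with only the compared groups fitted) and from Upf2 Cre by -0.06 (95% interval -0.48 to 0.36). Reads of Gpx4 are uncertain, because the processed pseudogene Gpx4-ps2 matches the transcript at 99.7% identity over 762 bases. It was listed at 40.4 TPM on average, 7.88% of the Gpx4 level, and how shared reads were divided is not given in the sources used here.

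The thioredoxin reductases keep thioredoxins reduced, Txnrd1 in the cytosol and Txnrd2 in mitochondria. Txnrd1 stood at 97.2 to 142 TPM (median 121) in Upf2 Trp53 Cre, 73.8 to 114 TPM (median 89.96) in Upf2 Cre and 90.4 to 144 TPM (median 129) in mock libraries. The Upf2 Cre values were the lowest as a group, with overlap at mock libraries 3 and 8. The log2 difference of Upf2 Cre against mock was -0.37 (SE 0.15, adjusted p = 0.052), just short of the threshold, and 9 of 27 alternatives brought it past. Upf2 Trp53 Cre and mock means were 122 ± 15.9 and 123 ± 19.1 TPM, a log2 difference of -0.0021 with a 95% interval from -0.31 to 0.31. Some reads may belong to neighbours, because Eid3 overlaps Txnrd1 on the same strand and Gm38560 on the opposite strand.

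Txnrd2 had the lowest level of the 10 genes. It ran from 10.5 to 14.7 TPM (median 11.2) in Upf2 Trp53 Cre, from 10.2 to 20.1 TPM (median 17.8) in Upf2 Cre and from 9.34 to 15.0 TPM (median 11.7) in mock libraries. In Upf2 Cre, 5 libraries were above every mock library and library 3 was among the mock values. Upf2 Cre exceeded mock by 0.45 (SE 0.16, adjusted p = 0.035), and by 0.58 (adjusted p = 0.0023) without library 3. Leaving out any of Upf2 Cre libraries 5, 6, 8 and 9 or mock libraries 3, 4, 5 and 9 ended the call, at 0.39 to 0.45 with adjusted p of 0.060 to 0.086, as did fitting only the compared groups (adjusted p = 0.071). Upf2 Trp53 Cre differed from mock by 0.0060, with a 95% interval from -0.34 to 0.35, and from Upf2 Cre by -0.44, which missed the threshold (adjusted p = 0.069).

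Selenow encodes a small redox protein of the thioredoxin-like fold that is abundant in brain and muscle. Upf2 Trp53 Cre libraries ran from 1603 to 3395 TPM with a median of 1806, Upf2 Cre libraries from 2112 to 5266 TPM with a median of 3611, and mock libraries from 729 to 1935 TPM with a median of 1272. The lowest Upf2 Cre library, number 3, was still above the highest mock library, which was also number 3. In Upf2 Trp53 Cre, library 4 stood at 3395 TPM and the other 5 at no more than 1918 TPM. Upf2 Cre exceeded mock by 1.51 (SE 0.26, adjusted p = 4.2e-04), a 2.85-fold ratio of means, and that call held in all 27 alternatives. Upf2 Trp53 Cre differed from mock by 0.70 (95% interval 0.16 to 1.23, adjusted p = 0.090), which passed the threshold under quantile normalization (0.79, adjusted p = 0.031) and without the libraries numbered 3 (0.87, adjusted p = 0.014). Between the Cre groups the difference of -0.82 (SE 0.26, adjusted p = 0.040) was lost when any of 10 libraries was left out, namely Upf2 Cre libraries 5, 6, 8 and 9, Upf2 Trp53 Cre libraries 3, 5, 6, 8 and 9 and mock library 4. The log2 difference was then -0.89 to -0.70, with adjusted p of 0.051 to 0.099. It was also lost under quantile normalization (-0.72, adjusted p = 0.057) and with no filter on low values (adjusted p = 0.082). Without Upf2 Trp53 Cre library 4 it was -0.97 (adjusted p = 0.013).

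Selenoh encodes a nuclear redox protein of the same fold. Its TPM had a median of 899 in Upf2 Trp53 Cre (range 666 to 993), 701 in Upf2 Cre (532 to 874) and 556 in mock libraries (272 to 713). Mock library 3, at 272 TPM, was below all others. Library 3 was also the lowest of Upf2 Trp53 Cre, and the remaining 5 of that group were above every Upf2 Cre and mock library in TPM as deposited. After median-ratio scaling the highest Upf2 Cre library stood at 871, and only Upf2 Trp53 Cre library 4, at 1005, was above it. Upf2 Trp53 Cre exceeded mock by 0.76 (SE 0.20, adjusted p = 0.014), or 878 ± 111 TPM against 535 ± 147 TPM (SD, n = 6 each). Median-ratio scaling lowered this to 0.60 (adjusted p = 0.077), and the other 26 alternatives kept the call. Upf2 Cre lay between, 0.41 above mock (95% interval -0.01 to 0.82, adjusted p = 0.10), and Upf2 Trp53 Cre was 0.35 above Upf2 Cre (adjusted p = 0.21). Under median-ratio scaling the difference between the Cre groups was 0.075. Of the 10 genes, Selenoh was the one whose mean was higher in Upf2 Trp53 Cre than in both other groups. The annotated gene Gm28635 overlaps it on the same strand, so part of its reads may be counted elsewhere.

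Selenom encodes a thioredoxin-like protein of the endoplasmic reticulum lumen. Values were 37.3 to 65.5 TPM (median 47.3) in Upf2 Trp53 Cre, 41.5 to 144 TPM (median 77.4) in Upf2 Cre and 27.9 to 46.8 TPM (median 38.8) in mock libraries. Upf2 Cre libraries 8 and 9, at 144 and 131 TPM, were the highest, and library 3 was within the mock range. The SD was 48.9% of the mean in Upf2 Cre, against 21.3% in mock. Upf2 Cre exceeded mock by 1.09 (SE 0.27, adjusted p = 0.0046), a 2.34-fold ratio of means, in all 27 alternatives. Upf2 Trp53 Cre exceeded mock by 0.39 (95% interval -0.16 to 0.95, adjusted p = 0.38) and differed from Upf2 Cre by -0.70, short of the threshold (adjusted p = 0.076).

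Selenok and Selenos encode membrane proteins of the endoplasmic reticulum that bind the degradation machinery for misfolded proteins, and Selenok also serves protein palmitoylation. Selenok ran from 112 to 220.4 TPM (median 190.3) in Upf2 Trp53 Cre, from 70.9 to 240.0 TPM (median 92.2) in Upf2 Cre and from 171 to 286 TPM (median 245) in mock libraries. Upf2 Cre libraries other than library 3 stood at no more than 118 TPM, below every mock library, while library 3 had 240.0 TPM. Upf2 Trp53 Cre library 4, at 112 TPM, was the one library of its group in the low range. The log2 difference of Upf2 Cre against mock was -1.16 (SE 0.25, adjusted p = 0.0020), and -1.40 without library 3, and it was called in all 27 alternatives. Upf2 Trp53 Cre differed from mock by -0.40 (95% interval -0.91 to 0.11, adjusted p = 0.34). Upf2 Trp53 Cre exceeded Upf2 Cre by 0.77 (SE 0.25, adjusted p = 0.043). That call was lost without any of 13 libraries, which were Upf2 Cre 5, 6, 8 and 9, Upf2 Trp53 Cre 3, 5, 6, 8 and 9 and mock 4, 5, 6 and 9 (0.66 to 0.77, adjusted p = 0.050 to 0.11). It was also lost under median-ratio scaling (0.49, adjusted p = 0.16) and quantile normalization (0.68, adjusted p = 0.081), with no filter on low values (adjusted p = 0.075) and with only the compared groups fitted (adjusted p = 0.068). Without Upf2 Cre library 3 the difference was 1.00 (adjusted p = 6.3e-04). Annotated Selenok pseudogenes were each listed at no more than 1.55% of the Selenok level.

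Selenos, too, was lowest in Upf2 Cre. It had a median of 102 TPM in Upf2 Trp53 Cre (range 51.2 to 107), 61.1 in Upf2 Cre (56.3 to 116) and 97.2 in mock libraries (83.4 to 127). Upf2 Cre library 3, at 116 TPM, lay in the mock range, and its other 5 libraries were below every mock library. Upf2 Trp53 Cre library 4, at 51.2 TPM, was the lowest of all 18. The log2 difference of Upf2 Cre against mock was -0.53 (SE 0.20, adjusted p = 0.038), and -0.68 (adjusted p = 0.0033) without library 3. The call ended without any of Upf2 Cre libraries 4, 5, 6, 8 and 9 or mock libraries 3, 4, 5, 6 and 9 (-0.55 to -0.47, adjusted p = 0.052 to 0.084) under median-ratio scaling (-0.42, adjusted p = 0.071) and with no filter on low values (adjusted p = 0.072). Upf2 Trp53 Cre differed from mock by -0.12 (95% interval -0.53 to 0.30, adjusted p = 0.75).

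**Figure D3:**
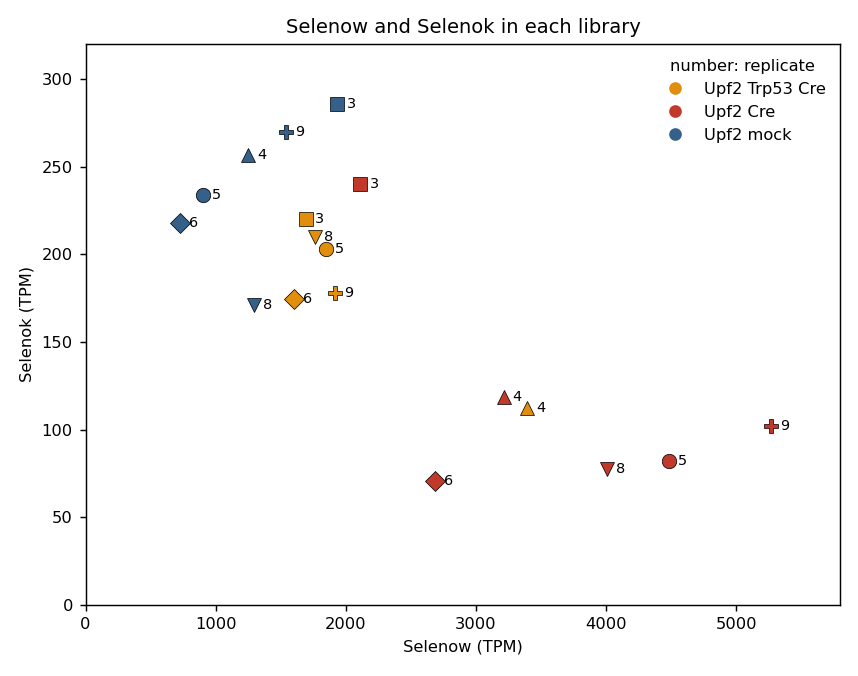
Selenow TPM (x axis) against Selenok TPM (y axis) in each of the 18 libraries, labelled with the replicate number and coloured by group. Upf2 Cre libraries 4, 5, 6, 8 and 9 and Upf2 Trp53 Cre library 4 lie at Selenok levels of no more than 118 TPM and Selenow levels of at least 2682 TPM, and Upf2 Cre library 3 lies near the other groups.

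Selenop encodes the secreted carrier that delivers selenium to the brain and other organs. Upf2 Trp53 Cre libraries ran from 30.6 to 93.8 TPM (median 55.2), Upf2 Cre libraries from 28.2 to 100.3 TPM (median 45.7) and mock libraries from 36.7 to 228 TPM (median 79.5). Library 3 was the highest of each group, and the groups overlapped throughout. Upf2 Cre differed from mock by -0.89 (95% interval -1.66 to -0.13, adjusted p = 0.057), and by -1.12 (adjusted p = 0.012) without Upf2 Cre library 3. Upf2 Trp53 Cre differed from mock by -0.68 (95% interval -1.45 to 0.08, adjusted p = 0.26). Lrp8 and Lrp2, which encode receptors that take up selenoprotein P, were both lower in Upf2 Cre than in mock cells, at 8.04 ± 3.16 against 12.8 ± 2.47 TPM and at 2.12 ± 1.22 against 3.95 ± 1.097 TPM (SD, n = 6 each; log2 differences -0.66 and -0.71, adjusted p = 0.016 and 0.038). Lrp2 was also higher in Upf2 Trp53 Cre than in Upf2 Cre cells, by 1.08 (adjusted p = 0.015). Ccdc152, antisense to part of Selenop, was listed at a mean of 0.039 TPM.

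The change in Upf2 Cre cells can be set beside the place of the UGA. Of the 7 genes whose UGA lay at least 55 bases before the last junction, 5 were higher in Upf2 Cre than in mock cells and none lower, with a median log2 difference of 0.59, where 16.5% of all genes were higher and 24.2% lower. The exceptions were Selenoh and Selenop, which were not called. Of the 3 genes without such a UGA, 2 were lower and none higher, with a median of -0.53. The set of Txnrd2 depends on the transcript, since another annotated transcript of it has the UGA past the last junction. For Selenop, only transcripts annotated as incomplete put the UGA under 55 bases from the junction. In Upf2 Trp53 Cre against mock, 2 of the 7 were higher and none lower (median 0.53), and none of the 3 was called (median -0.12), where 11.5% of all genes were called. Between the Cre groups the medians were -0.36 for the 7 and 0.41 for the 3. These are counts over 10 genes with no test, and the groups compared share libraries.

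The other selenoprotein genes, 14 in number, widen this view. Gpx2, Dio1, Dio3 and Selenov were below the minimum of 1 TPM in 6 libraries, and 10 were tested. Their median log2 difference in Upf2 Cre against mock was -0.39. In Upf2 Cre against mock 3 were higher: Gpx3, the secreted peroxidase, by 0.67 (adjusted p = 0.034), Selenon, which acts in calcium handling of the endoplasmic reticulum, by 0.69 (adjusted p = 0.0045), and Msrb1, a methionine sulfoxide reductase, by 0.78 (adjusted p = 0.011). Selenof and Selenot, both of the endoplasmic reticulum, and Sephs2, the selenophosphate synthetase, were lower, by -1.19 (adjusted p = 0.040), -0.81 (adjusted p = 0.012) and -1.02 (adjusted p = 0.0049). Of all genes tested, 16.5% were higher and 24.2% lower in this comparison. The Gpx3 call was lost without any of Upf2 Cre libraries 5 and 9 or mock libraries 5, 6, 8 and 9 (0.52 to 0.67, adjusted p = 0.054 to 0.079) and with no filter on low values (adjusted p = 0.073). The Selenof call was lost without any of Upf2 Cre 4, 5, 6 and 8 or mock 3, 4, 5 and 6 (-1.16 to -1.02, adjusted p = 0.072 to 0.094) under median-ratio scaling (-1.07, adjusted p = 0.0503), with only the compared groups fitted (adjusted p = 0.057) and with no filter (adjusted p = 0.0996). None of these 10 was called by limma in Upf2 Trp53 Cre against mock, where 11.5% of all genes were, and none had an unadjusted p under 0.05. Over all genes tested, 3719 of 15216 had such an unadjusted p in that comparison. Gpx3, Selenon and Msrb1 were lower in Upf2 Trp53 Cre than in Upf2 Cre cells, by -0.77, -0.52 and -0.69 (adjusted p = 0.040, 0.043 and 0.045), and each of these was lost without any one of 9 to 13 libraries. Gpx3 did not overlap between those groups, at 26.5 to 73.2 TPM in Upf2 Trp53 Cre and 75.8 to 118 TPM in Upf2 Cre libraries. Between these groups 2.46% of all genes were called lower, and 0.848% were lower without overlap.

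Over all 20 tested selenoprotein genes, 11 had a UGA at least 55 bases before the last junction. In Upf2 Cre against mock 7 of these were higher and 2 lower, where 16.5% of all genes were higher and 24.2% lower. The 11 had a median of 0.59, and the 2 lower ones were Selenof and Selenot. Of the 9 others, 1 was higher and 3 were lower, with a median of -0.53, and the higher one was Msrb1. Msrb1 and Selenof sit at the border, since their distances are 34 or 66 bases and 28 or 78 bases depending on the transcript. Of the 7 tested genes with the UGA in the last exon, Selenos and Sephs2 were lower and none was higher, a share of lower calls near the 24.2% over all genes. In Upf2 Trp53 Cre against mock, 2 of the 11 were higher and none lower, with a median of 0.17. None of the 9 others was called there (median -0.12), where 11.5% of all genes were. Between the Cre groups the medians were -0.36 for the 11 and 0.37 for the 9.

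**Figure D4:**
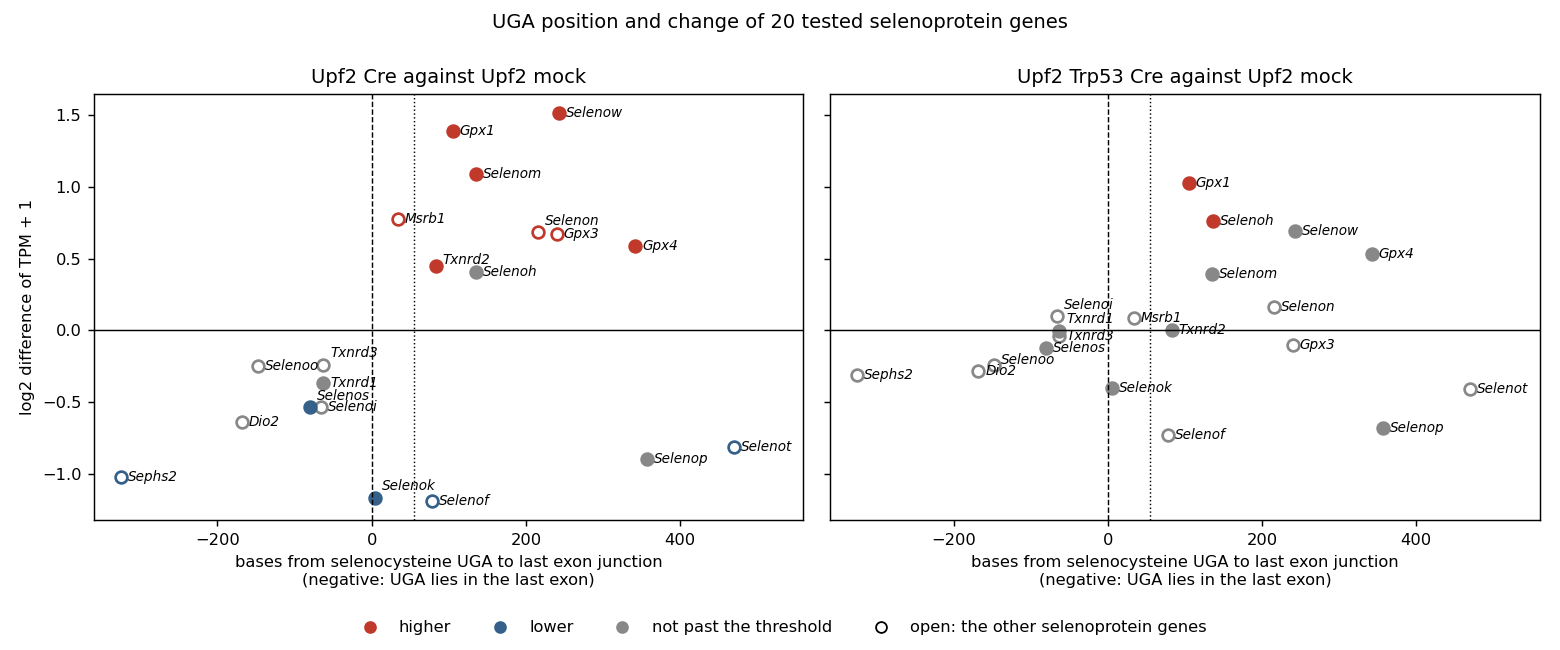
Log2 difference of TPM + 1 (y axis) against the number of mRNA bases from the first selenocysteine UGA to the last exon junction (x axis, negative where the UGA is in the last exon, and counted from the mRNA's start for the single-exon Sephs2) for the 20 tested selenoprotein genes, in both comparisons with mock. Filled points are the 10 genes described here, colours give the call, the dashed line marks the junction and the dotted line stands at 55 bases. In Upf2 Cre against mock 2 of the 7 genes left of 0 are called lower and none higher, and of the 11 right of 55 bases 7 are called higher and 2 lower.

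Genes that make and insert selenocysteine were lower in Upf2 Cre than in mock cells where they were called, 4 of 9, and none was higher, where 24.2% of all genes were lower and 16.5% higher. The median log2 difference of the 9 was -0.17, close to the -0.12 over all genes. Rpl30, a ribosomal protein that also binds SECIS elements, was listed at 295 ± 300.2 TPM in Upf2 Cre and 756 ± 139.7 TPM in mock libraries (log2 difference -1.73, adjusted p = 0.0020). Its 902.6 TPM in Upf2 Cre library 3 stood against at most 239.8 TPM in the other 5, and processed copies of ribosomal protein genes make such counts uncertain. Secisbp2l, a paralogue of the SECIS-binding protein gene, had -0.62 (adjusted p = 0.013), Sepsecs, whose enzyme completes selenocysteine on its transfer RNA, -0.56 (adjusted p = 0.028), and Pstk, the kinase of the preceding step, -0.77 (adjusted p = 0.036). Secisbp2 itself and Eefsec, the elongation factor, had log2 differences of -0.01 (95% interval -0.38 to 0.36) and 0.28 (-0.11 to 0.67). None of the 9 was called by limma in Upf2 Trp53 Cre against mock, where 11.5% of all genes were, 10.4% as higher. An unadjusted limma p under 0.05 was found for 4 of the 9, and for 3719 of all 15216 genes tested. The 4 were Secisbp2, Trnau1ap, Sars and Scly, all with positive differences. Sepsecs, Rpl30 and Sars, the seryl-tRNA synthetase, were higher in Upf2 Trp53 Cre than in Upf2 Cre cells, by 0.63, 1.14 and 0.84 (adjusted p = 0.037, 0.043 and 0.029). These were 3 of the 9, with none lower, where 11.8% of all genes were higher and 2.46% lower. The median of the 9 was 0.45 in that comparison, against 0.25 over all genes.

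Partners of the peroxidases and reductases changed in both directions. In the thioredoxin system, 3 of 9 genes were higher in Upf2 Cre than in mock cells and 4 lower, with a median log2 difference of -0.16. Of all genes tested, 16.5% were higher and 24.2% lower, with a median of -0.12. Mitochondrial Txn2, the substrate of Txnrd2, stood at 362 ± 72.0 against 211 ± 46.6 TPM (log2 difference 0.78, adjusted p = 0.0031), and Srxn1, which repairs peroxiredoxins, at 44.4 ± 15.1 against 19.5 ± 6.87 TPM (1.16, adjusted p = 0.0046). The peroxiredoxins Prdx4 and Prdx3 were lower, by -1.31 and -1.30 (adjusted p = 0.0027 and 0.0031). Txn1, the cytosolic substrate of Txnrd1, was lower as well, by -1.10 (adjusted p = 0.014). Srxn1 was the 1 gene of the 9 called in Upf2 Trp53 Cre against mock, by 1.02 (adjusted p = 0.021), where 11.5% of all genes were called. Between the Cre groups, 3 of the 9 were higher in Upf2 Trp53 Cre and none lower, where 11.8% of all genes were higher and 2.46% lower. Their median was 0.80, against 0.25 over all genes.

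Among 9 genes of glutathione supply and lipid peroxide handling, 3 were higher and 2 lower in Upf2 Cre than in mock cells, with a median of -0.11. Of all genes tested, 16.5% were higher and 24.2% lower, with a median of -0.12. Gss, the glutathione synthetase, had a log2 difference of 0.79 (adjusted p = 0.0024), Aifm2, which protects against ferroptosis apart from Gpx4, 0.93 (adjusted p = 0.0020) and Slc3a2, the heavy chain of the cystine transporter, 0.76 (adjusted p = 0.0097). In Upf2 Trp53 Cre against mock 3 of the 9 were higher and none lower, where 10.4% of all genes were higher and 1.09% lower. Slc7a11, the cystine transporter's light chain, was at 9.28 ± 4.73 against 2.71 ± 0.868 TPM (1.39, adjusted p = 0.0032), Slc3a2 at 552 ± 118 against 259 ± 95.4 TPM (1.14, adjusted p = 9.8e-04) and Aifm2 at 15.4 ± 2.70 against 9.03 ± 2.77 TPM (0.74, adjusted p = 0.016). Slc7a11 was also higher in Upf2 Trp53 Cre than in Upf2 Cre cells (1.72, adjusted p = 0.0012). It was the 1 gene of the 9 called between the Cre groups, where 14.2% of all genes were called.

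Some relatives of selenoprotein genes encode cysteine in place of selenocysteine. Of 8 such genes 6 were tested, and in Upf2 Cre against mock none was higher and 3 were lower, with a median of -0.70: Sephs1 by -1.18 (adjusted p = 0.0023), Msra by -0.94 (adjusted p = 0.0045) and the peroxidase Gpx8 by -0.85 (adjusted p = 0.031). Over all genes 24.2% were lower, and Sephs2, the selenoprotein relative of Sephs1, was lower as well. Gpx8 was lower in Upf2 Trp53 Cre than in mock cells too, by -1.03 (adjusted p = 0.029). Between the Cre groups, 3 of the 6 were higher in Upf2 Trp53 Cre and none lower, where 11.8% of all genes were higher and 2.46% lower. Their median was 0.58, against 0.25 over all genes. Msrb2, the cysteine relative of Msrb1, was among the 3, higher in Upf2 Trp53 Cre than in Upf2 Cre cells by 0.80 (adjusted p = 0.014). Of the 5 tested genes of the degradation complex that Selenok and Selenos join, 1 was higher and 1 lower in Upf2 Cre than in mock cells. Over all genes 16.5% were higher and 24.2% lower. The median of the 5 was -0.23, against -0.12 over all genes. Syvn1, the ubiquitin ligase of the complex, was higher by 0.86 (adjusted p = 0.0061) and Derl2 was lower by -0.50 (adjusted p = 0.029). Between the Cre groups, 1 of the 5 was higher in Upf2 Trp53 Cre and none lower, where 11.8% of all genes were higher. Vcp, the ATPase that Selenos recruits, and Derl1 were not called in any comparison, with adjusted p of at least 0.060 and 0.063. As deposited, Derl1 did not overlap between Upf2 Trp53 Cre (89.5 to 110 TPM) and mock libraries (69.6 to 85.2 TPM). Of all genes, 7.08% were higher without overlap in that comparison. After median-ratio scaling the groups overlapped, with mock library 8 at 94.5 and Upf2 Trp53 Cre library 5 at 79.0.

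The genes most like each selenoprotein gene were those with the highest Pearson correlation of log2(TPM + 1) over the 18 libraries, which share the 3 groups and the libraries that stand apart. Selenok was closest to Tubd1 (r = 0.991), Gm12191 (r = 0.985) and Hsd17b4 (r = 0.984), and Selenom to AI837181 (r = 0.982) and Tex264 (r = 0.977). Selenow was closest to Fis1 (r = 0.964), a mitochondrial fission protein, and Gpx1 to Orai2 and Osgin1 (r = 0.966 each). Txnrd1 was closest to Wdhd1 (r = 0.975), a DNA replication protein, Selenop to Vwa5a (r = 0.955), Selenos to Manba (r = 0.947), Selenoh to Txndc11 (r = 0.937) and Txnrd2 to Cdc34 (r = 0.918). For Gpx4 it was the pseudogene Gpx4-ps2 (r = 0.955). None of these closest genes is another of the 10.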

How the data were processed

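Total RNA of 18 cultures was sequenced with the TruSeq Stranded Total RNA kit at RNA integrity numbers of at least 9.0, per the labels' protocols. The authors deposited one table of gene TPM; STAR and mm10 are named in the submitters' processing notes, and versions, the quantification tool, its strand setting and the annotation are not given in the sources used here.

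Values were transformed to log2(TPM + 1), and the 15216 genes that reached 1 TPM in 6 or more libraries were fitted with limma 3.58.1 in R 4.3.3 (3 group means over 18 libraries, trended empirical Bayes moderation, Benjamini-Hochberg adjustment over all genes, threshold 0.05). Fold changes are on the log2(TPM + 1) scale and understate those of low genes. For Upf2 and Trp53 the tests were exact two-sided permutations, adjusted over 6, with a smallest possible p of 0.0022. UGA positions are from 1 principal GENCODE M21 transcript per gene, with the range over coding transcripts given where it matters. Of the table's IDs 55094 matched that annotation with version. Near copies were sought with BLAST 2.17.0 (at least 90% identity over 150 bases); plots were drawn with Matplotlib 3.10.9.

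Named were all 10 genes, the other 14 selenoprotein genes, up to 4 genes of each accompanying list by smallest adjusted p plus those a sentence turns on, and the genes of highest correlation; of the last and of the lists the text takes a selection. Pstk, Secisbp2, Eefsec, Trnau1ap, Scly and Txn1 were named after their values were seen. The 10 genes and the lists were chosen with earlier results of these data known. Alternatives, 27 for each difference, were another pseudocount (0.1), filters (none, or a mean over libraries of 5 TPM), scaling by median ratios or quantiles, no trend, only the compared groups, a replicate block, leaving out each library, and leaving out the libraries numbered 3. The method was checked on simulated data.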

Additional observations from a re-analysis of the deposited data

Results flagged for a closer look

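In 8 of the 30 sets of 6 libraries (10 genes in 3 groups), 1 library lay so far from the rest that its gap to the nearest exceeded the 95% critical value of Dixon's test, which chance alone exceeds in about 1 in 20 sets. Library 3 of Upf2 Cre accounts for 4 of them: Selenok at 240.0 TPM, Selenos at 116 TPM and Selenop at 100.3 TPM were high, and Txnrd2 at 10.2 TPM was low. Library 4 of Upf2 Trp53 Cre had a high Selenow at 3395 TPM and a low Selenos at 51.2 TPM. Selenoh was low in library 3 of Upf2 Trp53 Cre, at 666 TPM, and Selenop was high in library 3 of mock, at 228 TPM. The sets are not independent, since they share libraries.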

How the results depend on the processing

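Of 270 values in each comparison (10 genes, 27 alternatives), 227 kept their direction and side of the threshold when Upf2 Cre was set against mock, 249 when Upf2 Trp53 Cre was, and 217 for Upf2 Trp53 Cre against Upf2 Cre. Directions turned only for differences that were not called. For Upf2 Trp53 Cre against mock, Txnrd2 had -0.14 under median-ratio scaling, -0.092 under quantile normalization and -0.038 without the libraries numbered 3. Leaving out 1 library gave ranges across 0 for Txnrd2 (-0.056 to 0.070), Txnrd1 (-0.086 to 0.061) and Selenos (-0.17 to 0.047) there, and for Gpx4 between the Cre groups (-0.18 to 0.082), where Selenop had -0.063 under median-ratio scaling. The number of the 10 genes called in Upf2 Cre against mock was 7, and 4 to 9 with 1 library left out. In Upf2 Trp53 Cre against mock it was 2, 1 under median-ratio scaling, and 3 under quantile normalization, with only the compared groups fitted, without the libraries numbered 3 and without mock library 3. Between the Cre groups it was 2, and 0 without a filter (adjusted p = 0.082 for Selenow and 0.075 for Selenok), 3 under median-ratio scaling (Selenow, Selenom and Txnrd2), 1 under quantile normalization (Txnrd2 at -0.70, adjusted p = 0.039, with Selenow and Selenok lost), 1 with only the compared groups fitted (Selenow), 7 without the libraries numbered 3, and 0 to 7 with 1 library left out. All genes called in Upf2 Trp53 Cre against mock numbered 1752, and 3554 without the libraries numbered 3. Between the Cre groups they numbered 2165, and 1032 under median-ratio scaling, 1131 under quantile normalization, 5590 without the libraries numbered 3, and 598 (without Upf2 Cre library 8) to 5514 (without Upf2 Cre library 3) with 1 library left out. Trp53 in Upf2 Cre against mock was 0.39 (adjusted p = 0.071, exact permutation test). It passed the threshold at 0.50 under median-ratio scaling, 0.44 under quantile normalization, 0.45 without the libraries numbered 3 and 0.39 within replicate blocks, and was 0.29 to 0.51 with 1 library left out. The labels do not say whether replicate numbers pair the libraries, but same-numbered libraries often deviated together from their group means. In 14 of 18 same-numbered pairs r was over 0.1 (range -0.17 to 0.74), and 11 of 18 libraries correlated best with their own number. The main fit leaves replicate numbers out. With a replicate block the calls were 8054, 2970 and 4445 genes, and 9, 3 and 4 of the 10, in the order Upf2 Cre against mock, Upf2 Trp53 Cre against mock and between the Cre groups. The genes added by the block were Selenop and Txnrd1 (adjusted p = 0.0059 and 0.044), Gpx4 (0.53, adjusted p = 0.028), and Selenom and Txnrd2 (adjusted p = 0.034 and 0.030), in the same order. Where single causes are not evident from the setting, the cause was not tested. Depth is unknown, so the precision of low genes cannot be stated, and Gpx4 shares sequence with a pseudogene.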
